A study of Mus musculus with 6 samples.

Results

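Messenger RNA of 35 mouse genes of glucose uptake, glycolysis, lactate handling and the pentose phosphate pathway was compared between WT and knockout Th17 cells. The knockout is labelled as one of pyruvate dehydrogenase (PDH), which makes acetyl-CoA from pyruvate in mitochondria. The genes were listed by name and pathway role, not by a threshold on measured values, though with earlier results of these data known, and all 35 were found among the 15452 rows of the count table. Th17 cells are T helper cells named for the cytokine IL-17. Naive CD4+ T cells from spleen and lymph node were purified on magnetic beads and cultured for 3 days with plate-bound anti-CD3 (5 µg/mL), anti-CD28 (1 µg/mL), IL-6 (30 ng/mL), TGFβ (2 ng/mL) and anti-IFNγ (5 µg/mL). The 3 libraries called WT came from PDHfl/fl mice without Cre, and the 3 called KO, labelled PDH knockout, from PDHfl/fl CD4 Cre+ mice. Both groups carry the floxed alleles, and CD4 Cre, which acts during T cell development in the thymus, is present in every KO library and in no WT library. The labels give neither the floxed gene nor the age, sex or strain of the mice, nor if each replicate was its own animal or culture, so the p-values speak only of the spread among these libraries. Sample titles spell the locus PHD where the genotype labels spell it PDH.

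Glycolysis splits glucose into pyruvate in the cytosol. Pyruvate is then either reduced to lactate by lactate dehydrogenase and exported by monocarboxylate transporters, or carried into mitochondria, where PDH acts on it. The pentose phosphate pathway leaves glycolysis at glucose 6-phosphate: its oxidative branch makes NADPH and its non-oxidative branch exchanges sugars between ribose 5-phosphate and glycolysis. T cells raise glucose uptake and lactate output when they are activated, Th17 cells included.

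Total counts ran from 33802154 to 40407124 per library. Pdha1, which encodes the E1 alpha subunit of PDH, was at 256, 236 and 251 CPM (counts per 1000000, scaled by TMM) in WT replicates 1 to 3 and at 198, 193 and 186 CPM in KO replicates 1 to 3. Its groups were apart, but a count over the whole gene cannot show the loss of an exon. Summed markers of T cells (7 of 7 genes) were at 2216 to 2338 CPM in WT and 1510 to 1680 CPM in KO by library totals, and those of Th17 cells (7 of 7 genes) at 902 to 1211 and 592 to 753 CPM. Markers of B cells (9 of 9 genes) were at 125 CPM in WT replicate 2 and at 138 and 211 CPM in KO replicates 2 and 3, against 53.9 to 65.9 CPM in the other 3 libraries. Markers of myeloid cells (6 of 9 genes), stromal cells (3 of 5) and CD8 and NK cells (3 of 5) each summed to 22.8 CPM or less in every library. None of the 5 erythroid genes was among the rows of the count table. In KO replicate 2, 4.95% of counts fell on a single unnamed entry, against 0.0796 to 0.215% in the other 5 libraries. The part of these differences in the results on the 35 genes was not tested, apart from the values without single libraries and without the 3 with raised B cell markers.

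Most genes of glucose uptake and glycolysis were lower in KO. Of the 35 genes, 24 fell and 2 rose at an adjusted p under 0.05 (edgeR quasi-likelihood test, Benjamini-Hochberg adjustment over 15361 tested genes), and 9 were not called. All 35 had passed the filter on low counts. Across all tested genes 24.5% were called lower, 23.1% higher and 47.6% in either direction, so that 68.6% of the listed genes were called lower where the background share was 24.5%. Under upper-quartile scaling 4382 genes were called higher and 2927 lower, against 3548 and 3763 here, and 20 of the 35 genes still fell. The median log2 fold change of KO over WT was -0.48 over the 35 genes and 0.0087 over all tested genes. In each of the 24 genes that fell, every KO value lay below every WT value. With H6pd, 25 genes (71.4%) had KO values below the WT range, against a background of 29.4%, and 1 gene, Eno2, had KO values above it, against 28.8% (58.2% in either direction). A bulk measurement cannot tell fewer cells of a type from less RNA per cell.

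Among the 20 genes of glucose uptake and glycolysis 17 fell, 1 rose and 2 did not pass. The share called lower was 85.0%, where 24.5% of all tested genes were called lower and 23.1% higher. The median log2 fold change of the 20 genes was -0.55. Among the 8 pentose phosphate genes 3 fell, none rose and 5 did not pass, and the median was -0.16. Of these 8 genes 37.5% were called lower, against 24.5% over all tested genes, and none higher, against 23.1%. The share not called, 62.5%, was near the 52.4% not called over all tested genes, and the difference between roles was not tested. Slc16a3 was the only gene of the 35 to fall more than 2-fold. This share is near the background, where 2.86% of tested genes were called at least 2-fold lower. Together the 35 genes took 1.66, 1.75 and 1.51% of all counts in the WT libraries and 1.22, 1.196 and 1.23% in the KO libraries.

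**Figure D1:**
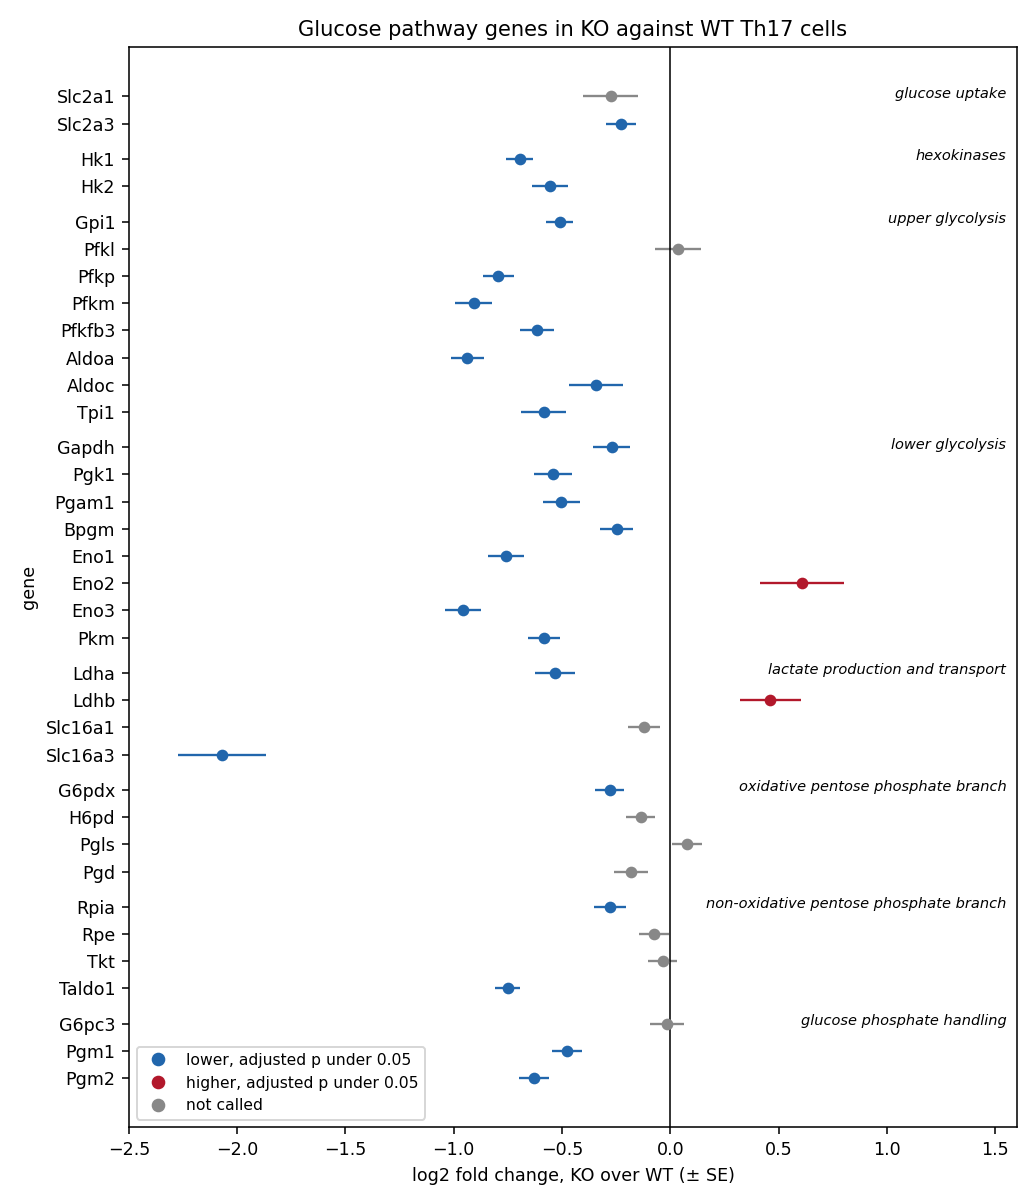
Log2 fold change of KO over WT (± SE, n = 3 per group) for each of the 35 genes, grouped by role, coloured by whether the adjusted p was under 0.05. Values run from -2.07 for Slc16a3 to 0.61 for Eno2, and most glycolytic genes lie between -0.5 and -1.

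**Figure D2:**
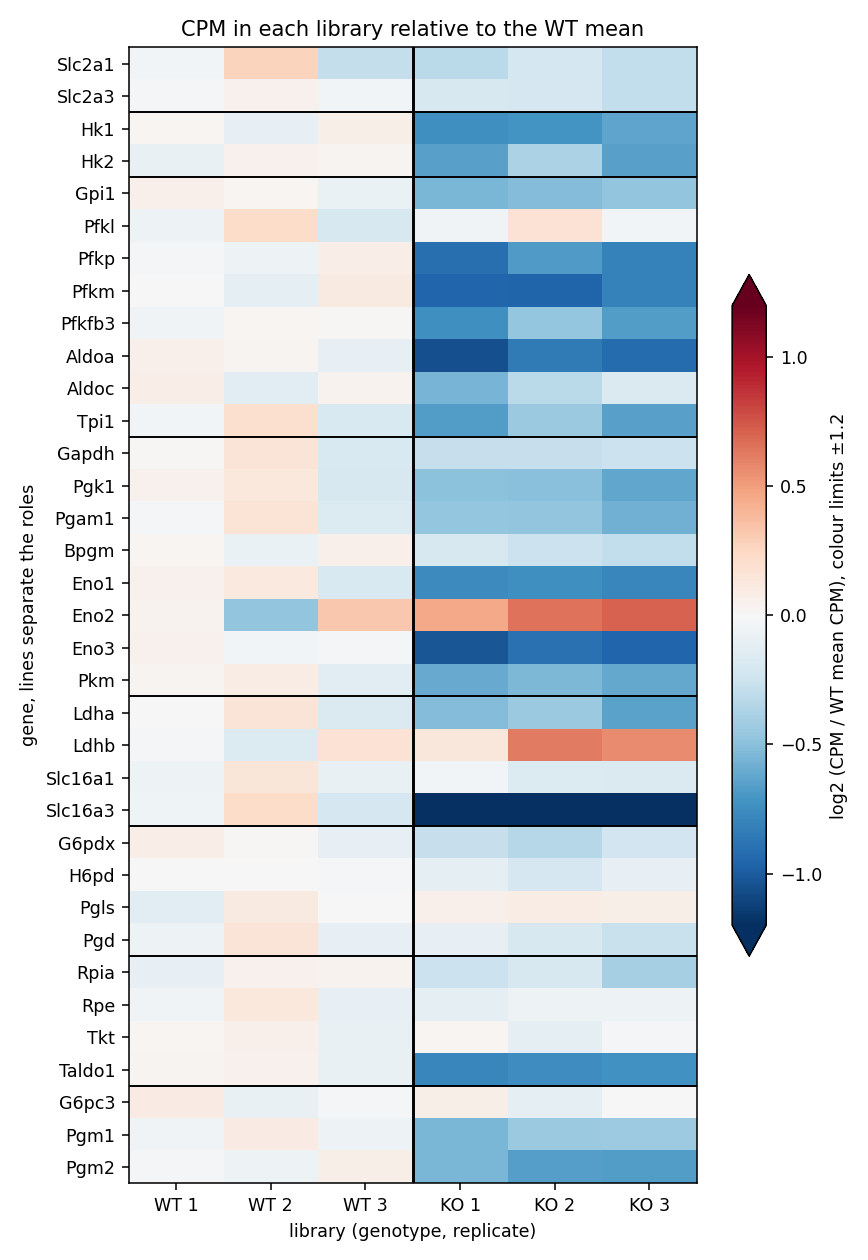
Log2 of CPM in each library over the WT mean of the same gene, with WT replicates on the left and KO replicates on the right. Slc16a3 lies beyond the lower colour limit of -1.2 in all 3 KO libraries, while Pfkl, Pgls, Rpe, Tkt and G6pc3 stay near 0.

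Promoters were searched for the letters of known control elements, in genes that fell, rose or were not called alike. The hypoxia response element, bound by HIF1, has the core ACGTG or GCGTG, and the E-box CACGTG is bound by MYC and by the MondoA and ChREBP factors. CACGTG holds ACGTG on both strands, so these motifs overlap. RefSeq promoter entries (build GRCm38.p6) exist for 34 of the 35 genes, and the 250 bases before each start site were searched on both strands, a gene counting where any of its entries held the motif. ACGTG or GCGTG was found in 28 of 34 genes (82.35%), against 60.23% of the genes tested here with an entry and 41.54% of all genes with an entry. Among the 23 genes that fell and have an entry 20 held it (86.96%), and among the 11 others 8 did (72.73%). Taken by itself, ACGTG was in 47.83% of the genes that fell and 27.27% of the others, the same way round. GCGTG was in 56.52 and 63.64% and CACGTG in 13.04 and 18.18%, the other way round. Over the genes tested here with an entry, ACGTG was in 24.95% and GCGTG in 48.76%. CACGTG was found in 5 of 34 genes (14.71%), against 9.65% of the tested genes and 6.86% of all. These are matches of letters in a short window, described without a test. Below are the 6 called genes with the smallest p whose entry holds a motif, taken at the entry with the most matches of ACGTG or GCGTG. Matches were counted on each strand, so that a single CACGTG counts as 2. Where entries tied, as for Pfkm and Aldoa, the first of these was taken. Chosen after their values were seen are Slc16a3, which fell most, and G6pc3, which holds 2 copies of CACGTG and was not called. Ldha, which fell, also holds 2 copies of CACGTG in an entry and is not printed. Capitals mark the motifs on either strand, and each run is 5′ to 3′ up to the base before the start site.
Taldo1 (chr7:141391910-141392159, plus strand): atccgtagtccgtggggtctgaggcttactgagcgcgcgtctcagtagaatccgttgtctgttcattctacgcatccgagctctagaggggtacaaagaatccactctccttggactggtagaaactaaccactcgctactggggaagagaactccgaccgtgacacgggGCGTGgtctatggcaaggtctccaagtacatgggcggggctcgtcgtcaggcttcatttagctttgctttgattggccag
Aldoa (chr7:126799255-126799504, minus strand): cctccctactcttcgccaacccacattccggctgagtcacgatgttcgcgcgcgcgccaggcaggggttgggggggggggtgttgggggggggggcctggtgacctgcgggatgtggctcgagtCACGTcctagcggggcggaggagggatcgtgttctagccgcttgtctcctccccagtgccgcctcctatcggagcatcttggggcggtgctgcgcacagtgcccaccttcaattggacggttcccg
Eno3 (chr11:70656926-70657175, plus strand): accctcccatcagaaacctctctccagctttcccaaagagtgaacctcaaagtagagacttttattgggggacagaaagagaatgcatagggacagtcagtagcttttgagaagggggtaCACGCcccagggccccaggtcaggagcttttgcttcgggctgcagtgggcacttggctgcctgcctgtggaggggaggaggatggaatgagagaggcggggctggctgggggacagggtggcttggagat
Pfkp (chr13:6648772-6649021, minus strand): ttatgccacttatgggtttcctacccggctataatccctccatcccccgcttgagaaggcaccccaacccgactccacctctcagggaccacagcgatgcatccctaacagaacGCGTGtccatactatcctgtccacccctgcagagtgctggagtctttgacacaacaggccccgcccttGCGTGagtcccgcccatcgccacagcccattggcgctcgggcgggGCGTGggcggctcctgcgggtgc
Hk1 (chr10:62340422-62340671, minus strand): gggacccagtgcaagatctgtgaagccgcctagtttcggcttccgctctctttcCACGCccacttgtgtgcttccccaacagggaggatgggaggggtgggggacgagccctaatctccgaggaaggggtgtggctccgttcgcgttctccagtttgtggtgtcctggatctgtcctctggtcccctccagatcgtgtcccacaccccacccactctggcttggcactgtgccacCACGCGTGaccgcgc
Pfkm (chr15:98092339-98092588, plus strand): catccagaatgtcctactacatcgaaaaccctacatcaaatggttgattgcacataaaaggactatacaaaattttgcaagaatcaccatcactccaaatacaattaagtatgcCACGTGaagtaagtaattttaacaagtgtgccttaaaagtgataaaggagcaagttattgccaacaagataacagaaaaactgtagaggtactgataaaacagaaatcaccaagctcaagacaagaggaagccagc
Slc16a3 (chr11:120948817-120949066, plus strand): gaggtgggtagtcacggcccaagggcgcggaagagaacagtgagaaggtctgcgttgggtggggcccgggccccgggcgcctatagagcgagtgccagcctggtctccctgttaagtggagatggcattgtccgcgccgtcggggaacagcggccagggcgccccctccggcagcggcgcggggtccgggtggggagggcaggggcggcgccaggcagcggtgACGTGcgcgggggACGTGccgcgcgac
G6pc3 (chr11:102189449-102189698, plus strand): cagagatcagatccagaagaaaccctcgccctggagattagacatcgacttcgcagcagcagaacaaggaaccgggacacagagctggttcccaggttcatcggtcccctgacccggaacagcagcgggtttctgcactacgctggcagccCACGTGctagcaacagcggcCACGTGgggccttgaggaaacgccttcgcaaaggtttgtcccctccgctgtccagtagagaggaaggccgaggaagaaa

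Glucose enters T cells through the transporters GLUT1 and GLUT3, encoded by Slc2a1 and Slc2a3. Slc2a1 was at 83.5, 103 and 70.1 CPM in WT and 68.4, 73.7 and 69.6 CPM in KO, and the groups overlapped because WT replicate 3 lay within the KO range. The gene was not called (-0.28 ± 0.13, adjusted p = 0.107, edgeR), and 1 library moved it either way: it was -0.12 without WT replicate 2 (adjusted p = 0.239) and -0.40 without WT replicate 3 (adjusted p = 0.00734). It also passed when replicate numbers were fitted as a block (adjusted p = 0.0422). Slc2a3 was at 29.7, 31.1 and 29.2 CPM in WT and 26.3, 26.03 and 24.5 CPM in KO, with every KO value below the WT values. It fell slightly (-0.23 ± 0.07, adjusted p = 0.0228, edgeR), and this call was lost without WT replicate 1, WT replicate 2 or KO replicate 3 (adjusted p = 0.067, 0.0572 and 0.0852), under upper-quartile scaling (0.0926) and with library totals (0.0623). Per length, Slc2a1 made up 77.3 ± 2.82% of the pair in WT and 77.0 ± 0.897% in KO (SD, n = 3), so the make-up of the pair differed by less than its spread.

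Both hexokinase genes fell. Hexokinases trap glucose in the cell as glucose 6-phosphate, and their isoforms Hk1 and Hk2 bind the outer mitochondrial membrane. Hk1 was at 271, 249.6 and 279 CPM in WT and 159.6, 162 and 172 CPM in KO (-0.70 ± 0.06, adjusted p = 4.4e-05, edgeR). Hk2, the isoform that is raised in many growing cells, was at 133, 146 and 144 and 89.7, 109 and 89.8 CPM (-0.56 ± 0.08, adjusted p = 0.000577). The groups of both genes were well apart, although KO replicate 2 was the highest KO library for Hk2. Hk1 was the more abundant isoform per length, with 67.7 ± 2.02% of the sum of both in WT and 65.6 ± 2.92% in KO. That sum was 105 ± 3.79 CPM per kilobase in WT and 67.1 ± 2.63 in KO, a change of -36.2%.

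In the upper steps of glycolysis 7 of 8 genes fell, where 24.5% of all tested genes were called lower. Aldoa, which encodes the aldolase that cleaves fructose 1,6-bisphosphate, was at 984, 966 and 883 CPM in WT and 454, 526 and 499 CPM in KO. The lowest WT library held more than 1.5 times the highest KO library, and the log2 fold change was -0.94 ± 0.08 (adjusted p = 2.72e-05, edgeR). A second entry under the symbol Aldoa, ENSMUSG00000114515, held less than 1 CPM in every library. The minor aldolase gene Aldoc fell less (-0.35 ± 0.12, adjusted p = 0.044), and its call was lost without WT replicate 1, WT replicate 3, KO replicate 1 or KO replicate 2 (adjusted p = 0.146, 0.0932, 0.127 and 0.0828) and under upper-quartile scaling (0.118), library totals (0.0885), the stricter filter (0.0698) and the fit with no robust dispersion (0.0525). Gpi1 (glucose 6-phosphate isomerase), Tpi1 (triose phosphate isomerase) and Pfkfb3, whose product makes the phosphofructokinase activator fructose 2,6-bisphosphate, fell by 0.51, 0.59 and 0.62 on the log2 scale.

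Phosphofructokinase, the committed step of glycolysis, is built from 3 isoforms, and these did not move together. Pfkp, the platelet type, was at 340.1, 329 and 364 CPM in WT and 184, 215 and 197 CPM in KO (-0.79 ± 0.07, adjusted p = 4.33e-05, edgeR). Pfkm, the muscle type, fell by 0.91 on the log2 scale. Pfkl, the liver type, was at 164, 199 and 150.3 CPM in WT and 166, 193 and 167 CPM in KO, and its groups overlapped fully. Its log2 fold change was 0.035 ± 0.11 (adjusted p = 0.809), and its sign turned without WT replicate 3 or KO replicate 2 (-0.051 and -0.043). Within each library, Pfkl made up 28.5, 33.4 and 25.4% of the 3 isoforms per length in WT and 42.8, 43.0 and 41.2% in KO. Pfkp went from 64.0 ± 3.50 to 52.4 ± 0.626% and Pfkm from 6.89 ± 0.551 to 5.23 ± 0.549%. Pfkp was the most abundant isoform in both groups, and the sum of all 3 isoforms was 158 ± 2.85 CPM per kilobase in WT and 111 ± 8.26 in KO.

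**Figure D3:**
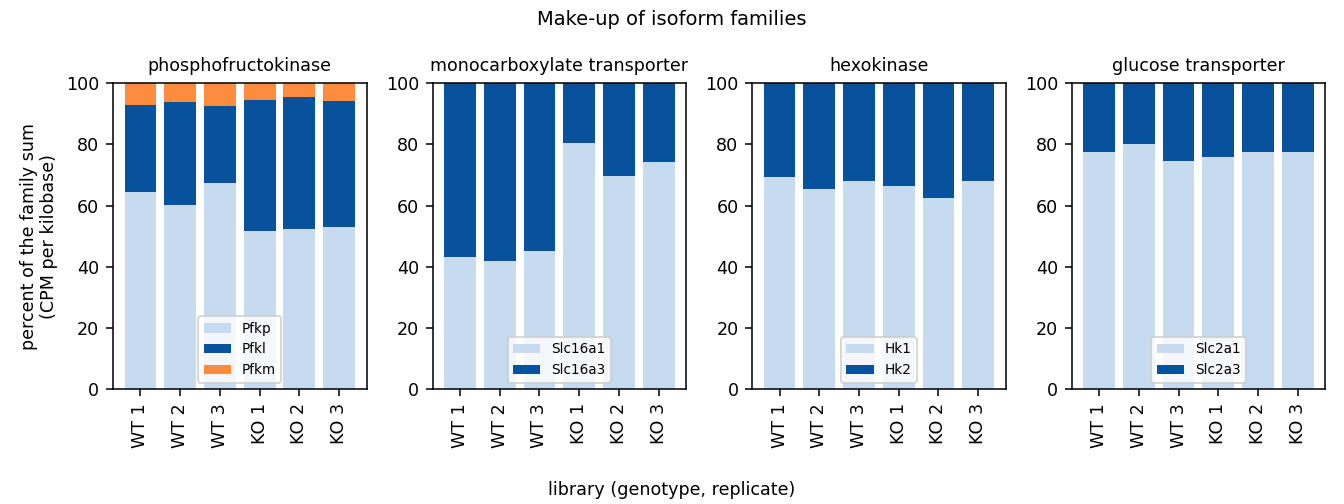
Make-up of 4 isoform families in each library, as the percent of the family's summed CPM per kilobase. The phosphofructokinase and monocarboxylate transporter families differ in make-up between WT and KO, with Pfkl at 25.4 to 33.4% in WT and 41.2 to 43.0% in KO, whereas the hexokinase and glucose transporter families overlap between groups.

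In the lower steps of glycolysis 7 of 8 genes fell and 1 rose, where 24.5% of all tested genes were called lower and 23.1% higher. The enolases took both directions. Eno1, the main enolase, which makes phosphoenolpyruvate, was at 1769, 1849 and 1506 CPM in WT and 1004, 1026 and 996 CPM in KO (-0.76 ± 0.08, adjusted p = 0.000116, edgeR). Eno3, the muscle isoform, was at 21.7, 20.5 and 20.7 CPM in WT and 10.3, 11.3 and 10.9 CPM in KO (-0.96 ± 0.08, adjusted p = 3.78e-05). In both genes the KO libraries were close to each other and far below the WT libraries. Eno1b, a near copy of Eno1 that can share its reads, was uneven at 32.8, 9.01 and 3.51 CPM in WT and 2.77, 1.98 and 26.5 CPM in KO, and these levels are at most 2.66% of those of Eno1 in the same library.

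Eno2, the neuronal isoform, rose. It was at 20.5, 14.3 and 24.9 CPM in WT and 27.2, 31.2 and 32.6 CPM in KO, with the lowest value in WT replicate 2 and no overlap between groups. The log2 fold change was 0.61 ± 0.19 (adjusted p = 0.0366, edgeR), and the call was lost without WT replicate 1, KO replicate 2 or KO replicate 3 (adjusted p = 0.0965, 0.0883 and 0.104). Without the 3 libraries with raised B cell markers it was 0.26 (adjusted p = 0.174), a fit that rests on KO replicate 1 alone in its group. Eno2 remained a minor isoform, at 0.958 ± 0.348% of the enolase sum per length in WT and 2.38 ± 0.217% in KO.

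The remaining genes of the lower steps fell by different amounts. Pkm (pyruvate kinase), Pgk1 (phosphoglycerate kinase, which makes ATP) and Pgam1 (phosphoglycerate mutase) fell by 0.58, 0.54 and 0.50 on the log2 scale. Gapdh, the glyceraldehyde 3-phosphate dehydrogenase gene often used as a reference, was at 4080.4, 4486 and 3547 CPM in WT and 3334, 3324 and 3375 CPM in KO. Its WT values were spread and its KO values were nearly equal, and it fell by 0.27 (adjusted p = 0.0274, edgeR). The Gapdh call was lost without any single library except WT replicate 3, at an adjusted p of 0.0605 without KO replicate 1, 0.0625 without KO replicate 3, 0.0744 without KO replicate 2, 0.0778 without WT replicate 2 and 0.0862 without WT replicate 1, and under upper-quartile scaling (0.0695). Bpgm, which makes 2,3-bisphosphoglycerate, fell by 0.25 (adjusted p = 0.0236), and its call was lost without WT replicate 1, WT replicate 3, KO replicate 2 or KO replicate 3 (adjusted p = 0.0844, 0.0622, 0.0599 and 0.0796) and under upper-quartile scaling (0.11), library totals (0.0755) and the stricter filter (0.0501). Gapdh, Pgk1, Pgam1, Tpi1 and Ldha have near-identical processed copies in the mouse genome, so reads can be split between entries.

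The lactate exporter MCT4 showed the steepest decrease of the 35 genes. Its gene Slc16a3 was at 106, 128 and 95.1 CPM in WT replicates 1 to 3 and 20.002, 32.5 and 25.9 CPM in KO replicates 1 to 3, and the lowest WT library was nearly 3 times the highest KO library. The log2 fold change was -2.07 ± 0.20, or 4.20-fold lower in KO (adjusted p = 0.000606, edgeR), and only 49 of the 15361 tested genes had a more negative value. Leaving out 1 library moved it between -2.26 and -1.91, with an adjusted p of 0.00541 at most. Slc16a1, which encodes MCT1, a carrier that works in both directions, was at 149, 172 and 146 CPM in WT and 152, 139 and 138 CPM in KO. Its groups overlapped and it was not called (-0.12 ± 0.08, adjusted p = 0.208).

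Within the pair of transporters, the major gene per length was Slc16a3 in WT and Slc16a1 in KO. Slc16a3 made up 56.8, 58.0 and 54.7% of their sum in the WT libraries and 19.6, 30.2 and 25.8% in the KO libraries. The sum itself was 81.2 ± 10.2 CPM per kilobase in WT and 43.3 ± 1.57 in KO. Both carriers need a membrane chaperone to reach the cell surface: Bsg (basigin) was at 258, 279 and 240.5 CPM in WT and 153, 179 and 164 CPM in KO (-0.65 ± 0.08, adjusted p = 0.000182, edgeR), and Emb (embigin) at 346, 350.1 and 345 and 198, 213 and 195 CPM (-0.78 ± 0.06, adjusted p = 1.94e-05). Both chaperone genes fell with no overlap, while their relative Nptn (neuroplastin) was not called (adjusted p = 0.525).

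The lactate dehydrogenase subunits moved in opposite directions. Ldha, the subunit that dominates in lactate-producing cells, was at 2043, 2293 and 1827 CPM in WT and 1429, 1514 and 1317 CPM in KO (-0.53 ± 0.09, adjusted p = 0.00136, edgeR), with all KO values below the WT range. Ldhb, the subunit that dominates in heart, was at 40.9, 37.1 and 47.02 CPM in WT and 45.8, 64.3 and 61.9 CPM in KO, where KO replicate 1 lay within the WT range. Ldhb rose by 0.46 ± 0.14 on the log2 scale (adjusted p = 0.0299), and the call was lost without WT replicate 1, WT replicate 2, KO replicate 2 or KO replicate 3 (adjusted p = 0.0907, 0.128, 0.0757 and 0.093). KO replicates 2 and 3, its highest libraries, are also those with raised B cell markers in KO, and without these and WT replicate 2 the log2 fold change was 0.063. Ldhb made up 2.45 ± 0.558% of both subunits per length in WT and 4.70 ± 0.849% in KO.

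Ratios between 2 genes of the same step were taken within each library, where scaling cancels. Of 12 pairs, 8 had no overlap between groups, and each of these reached p = 0.1, the smallest that an exact two-sided permutation of 3 against 3 libraries allows (adjusted p = 0.15 over the 12 pairs). The design cannot reach 0.05, and among single tested genes 58.2% also had groups that did not overlap. The widest shift was in Slc16a3/Slc16a1, at -0.50, -0.42 and -0.62 in WT and -2.93, -2.10 and -2.41 in KO (log2 ratio of counts). Eno2/Eno1, Ldhb/Ldha and Pfkl/Pfkp were higher in every KO library, by 1.39, 0.98 and 0.84 on average. The ratios Hk2/Hk1, Slc2a3/Slc2a1, Pfkm/Pfkp and Pgm2/Pgm1 overlapped between groups, with mean shifts from -0.15 to 0.13.

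**Figure D4:**
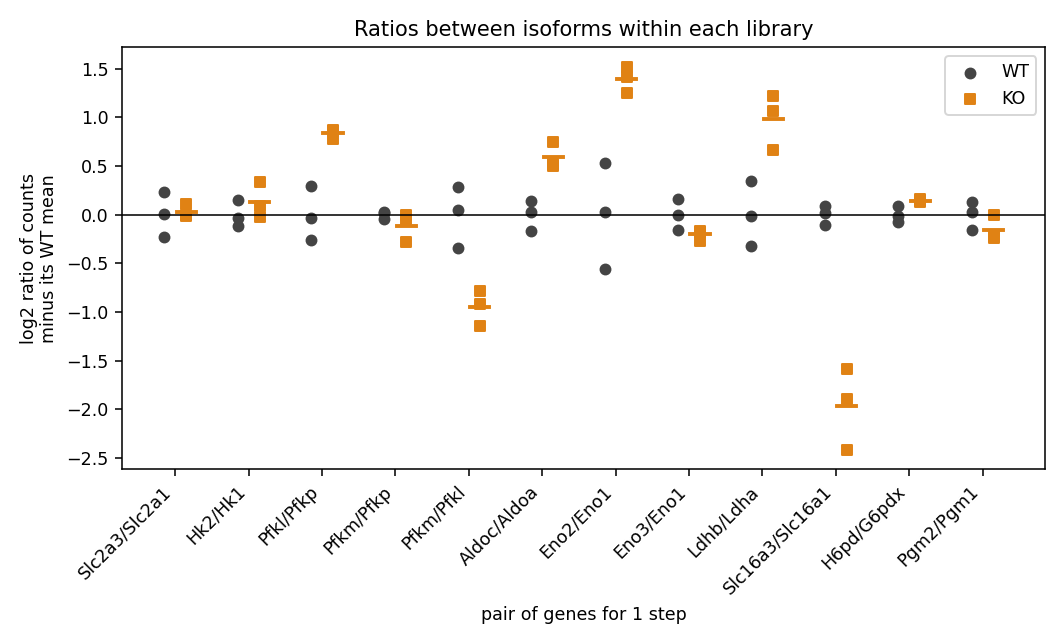
Log2 ratio of counts between 2 genes of the same step in each library, minus its WT mean, for 12 pairs, with 3 WT libraries as circles, 3 KO libraries as squares and the KO mean as a bar. Slc16a3/Slc16a1 is lowest in KO at a mean shift of -1.96, and Eno2/Eno1 highest at 1.39.

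In the oxidative pentose phosphate branch 1 of 4 genes fell, near the 24.5% called lower over all tested genes. G6pdx, the X-linked glucose 6-phosphate dehydrogenase gene of the rate-limiting step, was at 83.8, 80.2 and 74.1 CPM in WT and 65.7, 62.4 and 67.9 CPM in KO (-0.28 ± 0.07, adjusted p = 0.00658, edgeR). The groups were apart by a small margin. H6pd, its counterpart in the endoplasmic reticulum, was at 32.7, 32.8 and 32.3 CPM in WT and 30.3, 28.3 and 30.5 CPM in KO, apart but not called (adjusted p = 0.117). Pgls, the lactonase of the next step, was at 55.4, 65.03 and 60.7 and 63.1, 64.3 and 63.4 CPM (adjusted p = 0.394), and its KO values lay inside the WT range. Pgd, which makes the second NADPH and ribulose 5-phosphate, was at 139.8, 162 and 136 and 136, 128 and 122 CPM with KO replicate 1 inside the WT range (adjusted p = 0.0785), and passed only without WT replicate 3 (adjusted p = 0.0457). The whole branch took 0.0313 ± 0.00140% of counts in WT and 0.0292 ± 0.00137% in KO.

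The non-oxidative branch was split between its enzymes. Taldo1, transaldolase, was at 151, 153 and 139 CPM in WT and 86.1, 88.1 and 89.6 CPM in KO (-0.75 ± 0.06), and it had the smallest adjusted p of the 35 genes (2.41e-05, edgeR). Tkt, transketolase, the other enzyme that passes carbon back to glycolysis, was at 596, 612 and 549 CPM in WT and 594, 542 and 577 CPM in KO, with overlapping groups and no call (-0.036 ± 0.07, adjusted p = 0.686). Per length, Tkt was at 182 ± 10.1 and 177 ± 8.23 CPM per kilobase and Taldo1 at 114 ± 5.78 and 67.9 ± 1.33. Rpia, the isomerase that makes ribose 5-phosphate, was at 59.4, 65.8 and 65.5 CPM in WT and 53.2, 55.5 and 48.3 CPM in KO and fell by 0.28 (adjusted p = 0.0108). Rpe, the epimerase that makes xylulose 5-phosphate, was at 63.8, 71.6 and 61.3 and 60.9, 62.8 and 62.7 CPM, overlapping and not called (adjusted p = 0.379).

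Around glucose 6-phosphate, both phosphoglucomutase genes fell and the phosphatase gene was not called. The symbols of the mutases have been exchanged between annotations, so their IDs are given. Pgm1 (ENSMUSG00000025791), which links glucose 6-phosphate to glycogen and nucleotide sugars, was at 54.2, 59.6 and 53.5 CPM in WT and 38.2, 40.9 and 41.2 CPM in KO (-0.48 ± 0.07, adjusted p = 0.00047, edgeR). Pgm2 (ENSMUSG00000029171), which also acts on pentose phosphates, was at 44.5, 43.1 and 47.1 and 30.6, 28.3 and 28.2 CPM (-0.63 ± 0.07, adjusted p = 0.000119). In both genes all KO values lay far below the WT range. G6pc3, the broadly expressed glucose 6-phosphatase, was at 36.6, 32.2 and 33.8 CPM in WT and 35.99, 31.6 and 34.03 CPM in KO, and its groups overlapped (-0.014 ± 0.08, adjusted p = 0.898).

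Of 83 other genes of glucose metabolism 61 were analysed here, of which 14 rose, 23 fell and 24 did not pass; the median log2 fold change was -0.082. These are 23.0% higher and 37.7% lower, against 23.1 and 24.5% over all tested genes. The split depended on scaling, with 17 higher and 18 lower under upper-quartile scaling and 15 and 20 with library totals. Among the other hexose transporters 4 of 5 rose and none fell. Slc2a6 was at 26.1, 28.2 and 24.1 CPM in WT and 49.3, 53.5 and 61.1 CPM in KO (1.06 ± 0.09, adjusted p = 3.91e-05, edgeR). Slc2a9, a urate carrier, rose by 0.65 from a mean of 7.18 CPM in WT, and Slc2a2 rose by 1.79 but stayed under 1 CPM in every library. Slc2a4, the insulin-responsive transporter, named after its values were seen to complete the count, was at 0.540, 0.367 and 0.717 CPM in WT and 0.767, 3.12 and 2.61 CPM in KO (adjusted p = 0.0171, edgeR), with the highest values in the KO libraries with raised B cell markers. Without the 3 libraries with raised B cell markers its log2 fold change went from 1.98 ± 0.53 to 0.29 (adjusted p = 0.628), and the call was also lost without WT replicate 1, WT replicate 2 or KO replicate 3 (adjusted p = 0.067, 0.0828 and 0.0503). Among other glycolytic isoforms Adpgk, an ADP-dependent glucokinase, rose by 0.41, and Hk3 and Ldhd were not called, although Ldhd, a D-lactate dehydrogenase, passed without WT replicate 2 (-0.78, adjusted p = 0.00416) and without the 3 libraries with raised B cell markers (-0.86, adjusted p = 0.0165).

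Genes that sense glucose or set the level of fructose 2,6-bisphosphate were mixed. Of 5 genes of the MondoA axis, which responds to glucose 6-phosphate, 3 rose and 1 fell. Over all tested genes 23.1% were called higher and 24.5% lower. Txnip, its best-known target and a brake on glucose uptake, was at 48.9, 44.4 and 52.3 CPM in WT and 67.9, 86.05 and 79.7 CPM in KO (0.68 ± 0.10, adjusted p = 0.000451, edgeR). The KO values all lay above the WT values, as did those of the related arrestin gene Arrdc4 (1.75 ± 0.28) and of Mlxipl (2.34 ± 0.36), which encodes ChREBP, although these were at 1.49 and 0.765 CPM or less in every library. The partner gene Mlx fell by 0.49 and Mlxip, which encodes MondoA, was not called (adjusted p = 0.497). Pfkfb1 and Pfkfb2 rose by 0.50 and 0.46, and the Pfkfb1 call was lost without WT replicate 1, WT replicate 2, KO replicate 1 or KO replicate 3 (adjusted p = 0.0517, 0.062, 0.1 and 0.0513). Tigar, a fructose 2,6-bisphosphatase, fell by 0.27, a call lost without KO replicate 3 (adjusted p = 0.0505) and without the 3 libraries with raised B cell markers (-0.16, adjusted p = 0.204), and Pfkfb4 was not called (adjusted p = 0.144) except without WT replicate 2 (adjusted p = 0.0445).

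Lists of genes that feed other sugars into glycolysis or draw on its intermediates held calls in both directions. Over all tested genes 24.5% were called lower and 23.1% higher, and the lists were not tested against these shares. In hexosamine, mannose and galactose metabolism 8 of 14 fell and 2 rose. Galk1, galactokinase, was at 93.3, 100.3 and 80.998 CPM in WT and 31.7, 33.4 and 32.1 CPM in KO (-1.50 ± 0.08, adjusted p = 7.07e-06, edgeR), a steeper decrease than in any of the 35 genes but Slc16a3. Galm (galactose mutarotase) and Gnpda1 (glucosamine 6-phosphate isomerase) fell by 1.07 and 1.00, while Gfpt1, which encodes the first enzyme of hexosamine synthesis, and Pmm2 rose by 0.52 and 0.61. In glycogen and nucleotide sugar metabolism 5 of 12 fell and 2 rose. Ugp2, which makes UDP-glucose, Ugdh, which oxidises it, and the glycogen synthase gene Gys1 fell by 0.79, 0.66 and 0.44, and Gbe1, the glycogen branching enzyme gene, and Pgm2l1 rose by 0.97 and 0.40.

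Of the 7 genes of pentose entry and use 3 fell and none rose. The counts of this and the next short lists were not tested against the shares over all tested genes, 24.5% lower and 23.1% higher. Rbks, ribokinase, was at 4.998, 5.50 and 3.88 CPM in WT and 1.78, 1.95 and 1.87 CPM in KO (-1.36 ± 0.18, adjusted p = 0.000345, edgeR). Prps1, which turns ribose 5-phosphate into PRPP for nucleotides, fell by 0.23, a call lost under upper-quartile scaling (adjusted p = 0.0505) and at the edge without the 3 libraries with raised B cell markers (adjusted p = 0.05). Slc37a4, the glucose 6-phosphate carrier of the endoplasmic reticulum, was called at the edge (adjusted p = 0.0464), and the call was lost without WT replicate 1, WT replicate 2, KO replicate 2 or KO replicate 3 (adjusted p = 0.16, 0.0986, 0.143 and 0.105), under upper-quartile scaling (0.163) and library totals (0.129), and by DESeq2 (0.0551) and limma-voom (0.052). Of 6 genes of gluconeogenesis and glycerol 3-phosphate 2 fell, Pgp (-0.78 ± 0.11), which encodes a phosphatase of glycolytic side products, and Gpd1l (-0.32 ± 0.07), whose call was lost without the 3 libraries with raised B cell markers (adjusted p = 0.0843). Of 5 other monocarboxylate transporters and chaperones 3 fell, Bsg, Emb and Slc16a6 (-0.23 ± 0.08, adjusted p = 0.0356). The Slc16a6 call was lost without WT replicate 2, WT replicate 3, KO replicate 2 or KO replicate 3 (adjusted p = 0.0941, 0.055, 0.0815 and 0.116) and under upper-quartile scaling (0.116), library totals (0.0774) and the stricter filter (0.0654). Without the 3 libraries with raised B cell markers Slc16a6 was at -0.10 (adjusted p = 0.418).

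**Figure D5:**
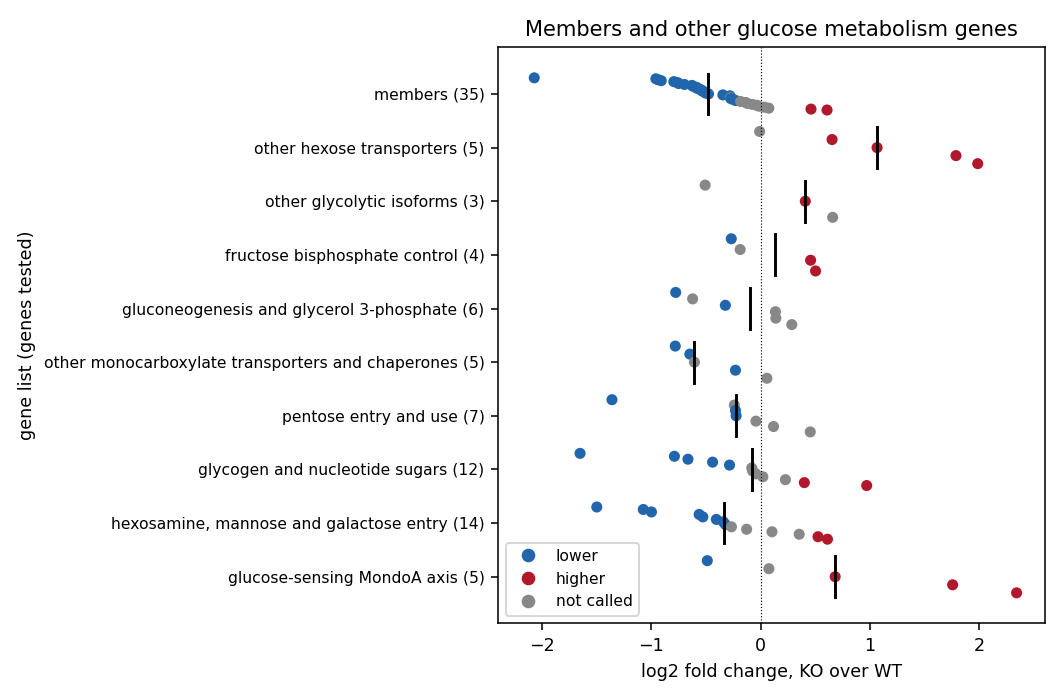
Log2 fold change of KO over WT for the 35 genes and 9 lists of other glucose metabolism genes, 1 point per gene, coloured by call, with the median of each list as a bar. The median is -0.48 for the 35 genes, 1.06 for other hexose transporters and 0.68 for the MondoA axis.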

How the data were processed

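Messenger RNA of cultured Th17 cells was sequenced in 3 WT and 3 KO stranded libraries, per the labels' protocols. The authors deposited estimated counts per gene in whole numbers, used here as they stand. Salmon, DESeq and DESeq2 appear in the submitters' processing notes with no version or role, while genome build and annotation were not given in the sources used here. Low genes had been removed: each of the 15452 deposited rows reached 10 counts in 3 or more libraries. IDs were matched without version to GENCODE M21 symbols (15138 matched, 314 did not), and where IDs share a symbol the one with the highest mean count kept it.

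Counts were analysed with edgeR 4.0.16 in R 4.3.3: filterByExpr (15361 genes left), scaling by TMM, and the quasi-likelihood F test with robust dispersion of KO against WT, adjusted by Benjamini-Hochberg across the tested genes, with calls at 0.05. TMM scaling applies to all CPM except sums over markers, which use library totals. Values given in threes are replicates 1, 2 and 3, changes are log2 fold changes of KO over WT ± SE, and errors of levels are SD over n = 3. CPM per kilobase divide by the median length of GENCODE M21 protein-coding transcripts and serve to compare genes. Ratios within a library use counts plus 0.5 and an exact two-sided permutation over 20 assignments. The biological coefficient of variation was 13.8%. A count of 0 would allow 3 counts, at most 0.0888 CPM, and this covers counting error only. No 2 libraries of a group differed by sampling noise alone (chi-square per degree of freedom of at least 24.1). The fit was tested on simulated data with known changes. Figures used matplotlib 3.10.9.

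The genes, lists and tests were chosen with earlier results of these data known. Per-library values are given for the 2 genes of each role with the smallest p, those that rose and those not called, and of the other genes up to 3 higher and 3 lower per list with Txnip, Pfkfb4, Tigar and Bsg are named. Pdha1, Eno1b, Nptn, Slc2a4, Hk3, Ldhd and Mlxip were named in addition, and their alternatives were chosen after seeing the data. Protein sequences were not used here. Alternatives were RLE, upper-quartile and library-total scaling, DESeq2 1.42.0, limma-voom (limma 3.58.1), no filter, a stricter filter (50 counts in 3 libraries), non-robust dispersion, a test against 1.2-fold, a block for replicate number, leaving out each library, and the 3 libraries with raised B cell markers left out together.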

Additional observations from a re-analysis of the deposited data

How the results depend on the processing

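Of the 24 genes that fell, 18 kept their call under all 17 alternatives: Hk1, Hk2, Gpi1, Pfkp, Pfkm, Pfkfb3, Aldoa, Tpi1, Pgk1, Pgam1, Eno1, Eno3, Pkm, Ldha, Slc16a3, Taldo1, Pgm1 and Pgm2. The other 6, Slc2a3, Aldoc, Gapdh, Bpgm, G6pdx and Rpia, lost it in at least 1. Tested against a fold change of 1.2, a stricter question, 3981 genes passed (2125 higher and 1856 lower), with 18 of the 35 genes lower and 0 higher, and of the 61 other genes 14 lower and 11 higher. The count of listed genes that rose, 2, ran from 0 to 2 when 1 library was left out, and the count that fell from 20 to 24. Without the 3 libraries with raised B cell markers 19 fell and 0 rose, on a single KO library whose spread is taken from WT. There Slc2a3, Gapdh, Bpgm, G6pdx and Rpia were not called (adjusted p = 0.256, 0.228, 0.149, 0.0672 and 0.086).

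Among the named genes, all of which were run under these alternatives, signs turned only in genes that were not called. Besides Pfkl (-0.051 without WT replicate 3 and -0.043 without KO replicate 2), Rpe was at 0.0022 under upper-quartile scaling, where Tkt and G6pc3 were at 0.043 and 0.064. With library totals Tkt and G6pc3 were at 0.0094 and 0.031, and with the filter of 50 counts at 0.0088 and 0.030. Without WT replicate 1 or KO replicate 2 G6pc3 was at 0.036 and 0.031. Without the 3 libraries with raised B cell markers Slc16a1, Tkt, G6pc3 and Mlxip were at 0.046, 0.056, 0.035 and -0.020. With 1 library left out, values ran from -0.051 to 0.16 for Pfkl, from -0.064 to 0.036 for G6pc3, from -0.0069 to 0.13 for Mlxip, from -2.66 to 0.73 for Eno1b and, for the log2 ratio Slc2a3/Slc2a1, whose groups overlap, from -0.086 to 0.15. The cause was not tested.

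Deviations from the group mean in same-numbered WT and KO libraries correlated at -0.10, 0.09 and -0.26 across genes. WT replicate 1 correlated best with KO replicate 3. With 3 libraries per group these values cannot settle if same-numbered samples belong together. Fitted with replicate numbers as a block, 7218 genes were called against 7311, and 27 of the 35 genes against 26, the added gene being Slc2a1. Of the other named genes Slc37a4 lost its call (adjusted p = 0.0609), and no other named gene's call changed. Of the 35 genes, the lowest, Aldoc, held at least 312 counts in every library; whether depth or replicate number limited the calls was not tested.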
